A study of Mus musculus with 10 samples.

Results

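The genes described here are 34 enzymes and enzyme subunits of serine synthesis, the folate and methionine cycles, transsulfuration, glycine cleavage, threonine breakdown and methyl group disposal, chosen by name from the 21830 genes of the deposited tables. Of these, 29 reached 1 TPM (a transcript level corrected for transcript length and scaled to a fixed total per library) in at least 2 libraries and were tested. The other 5, Mat1a, Gnmt, Sardh, Chdh and Nnmt, stayed below 1 TPM in every library and were not tested. RNA had been sequenced from 5 lines of mouse embryonic stem cells (ESCs) with 2 libraries each, 10 in all, and the levels of these genes were compared between the lines.

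Naïve ESCs were J1 cells with the genotype WT, kept on gelatin in medium with serum, LIF and the inhibitors PD0325901 (against MEK1) and CHIR99021 (against GSK3β), which hold cells in a state like that of the pre-implantation epiblast. GKO carried a knockout of Gys1, the glycogen synthase of most tissues. AKO carried a knockout of AMPK, made with commercial plasmids against the α1 subunit (Prkaa1) that also insert an RFP reporter, and DKO carried both knockouts. These 3 lines were derived from J1 and are taken to share the naïve medium, since the labels give one for J1 and one for PJ1. Primed ESCs (PJ1) were WT J1 cells kept on Matrigel with KnockOut Serum Replacement, bFgf and Activin, so that the pluripotent state and the medium cannot be told apart in the primed comparison. Gys1-deficient cells were picked as single colonies, and which clones gave which library is not given in the sources used here, so a property of a clone and an effect of the knockout cannot be told apart. Nothing in the labels says that the 2 libraries of a line came from separate cultures, and the p-values then measure only the spread between these libraries, which may be technical.

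Serine is made from the glycolytic intermediate 3-phosphoglycerate, and its side chain carbon is passed to folate when serine becomes glycine. Folate-bound carbon is used for thymidylate and purines and for remaking methionine, whose activated form, S-adenosylmethionine, is the methyl donor of histone and DNA methylation. Mouse naïve ESCs are known for drawing glycine and acetyl-CoA from threonine through the dehydrogenase Tdh, which feeds the same folate pool.

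The state of each line was read from marker genes in the same tables. The summed level of 10 naïve pluripotency genes was between 1730 and 2010 TPM in the 8 naïve, AKO, GKO and DKO libraries and 170 and 180 TPM in the primed libraries. The sum of 8 primed pluripotency genes set GKO apart from the other lines of that group. Its libraries had sums of 94.4 and 94.3 TPM, where those of naïve, AKO and DKO ranged from 60.4 to 68.7. The primed libraries reached 527 and 542 TPM. Most of the difference between GKO and naïve ESCs was Zic2, at 33.7 and 33.3 TPM in GKO against 14.4 and 13.7 in naïve ESCs. Pou3f1, Dnmt3a, Sfrp2 and Cldn6 of the list were also higher in GKO, while Otx2, Dnmt3b and Fgf5 overlapped between GKO and naïve ESCs. In DKO, genes of the list moved in opposite directions. Zic2 was at 4.48 and 5.37 TPM there, and Dnmt3b at 41.0 and 41.3 against 27.5 and 28.3 in naïve ESCs. The primed libraries differed from each other more than the others did. The median absolute difference between the 2 libraries of a line was 0.15 over the tested members on the log2(TPM + 1) scale in primed ESCs, against 0.04 to 0.06 in the other lines. Fgf5 was at 10.7 TPM in primed library 1 and 0.447 in library 2, and the sum of 5 mesendoderm genes was 20.2 and 2.97 TPM. Gys1 mRNA was between 9.70 and 14.3 TPM in every library, and a frameshift need not lower it, so that level does not check the label. Prkaa1 stood at 15.5 and 16.6 TPM in naïve cells, 7.24 and 6.94 in AKO and 2.30 and 2.04 in DKO. In bulk RNA, fewer cells of a kind and less RNA per cell cannot be told apart.

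In the comparisons below, a gene was called when its limma p-value, adjusted by the Benjamini-Hochberg method over all 12052 tested genes, was under 0.05, and changes are differences in log2(TPM + 1), which understate the fold change of low genes. In GKO against naïve ESCs, 19 of 29 tested members were called, 8 higher and 11 lower, where 51.8% of all tested genes were called (24.7% higher and 27.1% lower). Without GKO library 1, the count was 11. In DKO against naïve ESCs, 22 were called, 8 higher and 14 lower, against a background of 46.1% (21.8% higher and 24.3% lower). In AKO against naïve ESCs, limma called 0 members, against a background of 0.224% (0.0664% higher and 0.158% lower). In primed against naïve ESCs, 25 were called, 9 higher and 16 lower, against a background of 80.0% (37.5% higher and 42.6% lower). Aldh1l2, among these 9, passed the filter on low values only through the primed libraries, where it is high. The median change of the tested members was -0.20 in GKO, -0.22 in DKO and -0.31 in primed ESCs, beside medians of -0.01, -0.01 and -0.06 over all tested genes. The summed level of all 34 genes was 2349 and 2303 TPM in naïve, 2399 and 2428 in AKO, 2126 and 2113 in GKO, 2045 and 2051 in DKO, and 1709 and 1766 in primed ESCs. The deposited totals differ between libraries. As a share of the library's total, the sum was 0.406% and 0.408% in naïve, 0.414% and 0.421% in AKO, and 0.411% and 0.398% in GKO. It was 0.385% and 0.367% in DKO and 0.334% and 0.353% in primed ESCs. By share, GKO thus overlapped naïve ESCs.

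**Figure D1:**
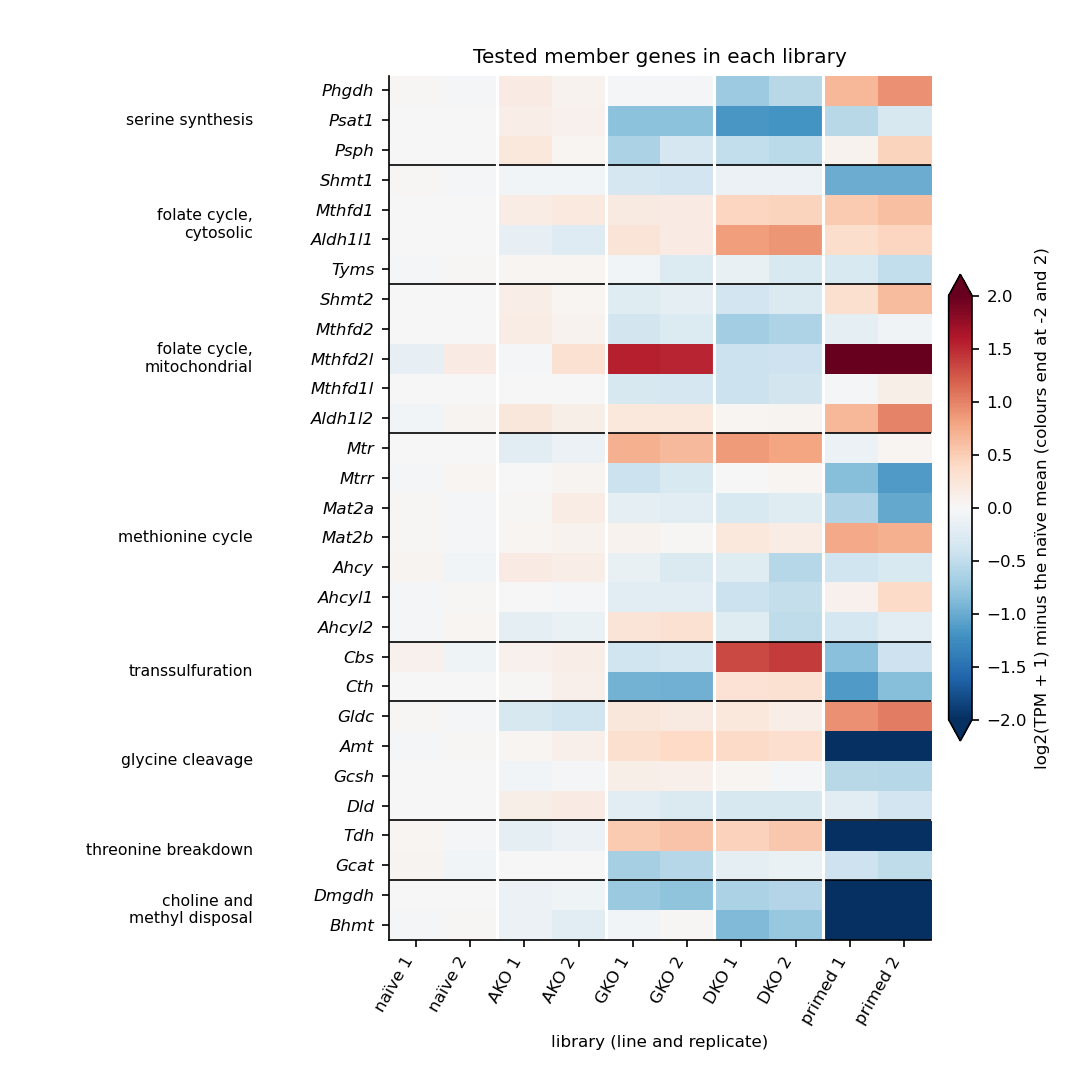
Difference of log2(TPM + 1) from the mean of the naïve libraries for the 29 tested genes (rows, grouped by branch) in each of the 10 libraries (columns), with colours ending at -2 and 2. Psat1 is lower in all GKO and DKO libraries, Mthfd2l is higher in GKO and primed libraries, and Amt, Tdh, Dmgdh and Bhmt lie below -2 in both primed libraries.

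Among the serine synthesis genes, Psat1 and Psph fell in both Gys1-deficient lines and Phgdh fell in DKO. Psat1, the aminotransferase of the second step, was at 319.6 and 325 TPM in naïve, 353 and 342 in AKO, 183 and 182 in GKO, 144 and 140.1 in DKO, and 219.6 and 258 in primed ESCs. All GKO and DKO libraries lay below all naïve, AKO and primed ones, and those of DKO below those of GKO. The change against naïve ESCs was -0.82 ± 0.07 (SE, n = 2 per line) in GKO (adjusted p = 2.56e-05), -1.18 ± 0.07 in DKO (adjusted p = 5.83e-06) and -0.44 ± 0.07 in primed ESCs (adjusted p = 0.000266). The primed call was lost under quantile normalization and with each chromosome centred. Against AKO, the change in DKO was -1.29 ± 0.07 (adjusted p = 4.02e-06).

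Phgdh, the dehydrogenase that commits 3-phosphoglycerate to serine, did not share the GKO pattern. It was at 66.5 and 64.7 TPM in naïve, 74.0 and 68.6 in AKO, 64.5 and 64.2 in GKO, 39.4 and 44.6 in DKO, and 104 and 125 in primed ESCs. DKO was the lowest line and primed the highest, with no overlap with the other lines, while the GKO libraries lay just below the naïve ones. Phgdh fell in DKO (-0.64 ± 0.09, adjusted p = 0.000439) and rose in primed ESCs (0.79 ± 0.09, adjusted p = 2.37e-05). In GKO its change of -0.03 ± 0.09 did not pass the test (adjusted p = 0.811) and changed sign under quantile normalization and with each chromosome centred.

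Psph, the phosphatase that releases free serine, was at 24.0 and 23.5 TPM in naïve, 27.5 and 24.5 in AKO, 15.0 and 18.5 in GKO, 16.6 and 16.0 in DKO, and 24.9 and 32.9 in primed ESCs. It was lower in every GKO and DKO library than in any other, and fell in GKO (-0.48 ± 0.13, adjusted p = 0.0122) and in DKO (-0.52 ± 0.13, adjusted p = 0.00987). The GKO call was lost without naïve library 1 or GKO library 1, and the DKO call without naïve library 1 or DKO library 2. The level of the 3 genes together was 410.1 and 413.8 TPM in naïve, 262.2 and 264.3 in GKO and 199.6 and 200.6 in DKO. Psat1 exceeded Phgdh 4.81 and 5.03 times in naïve ESCs, 2.83 and 2.83 times in GKO, and 2.11 and 2.07 times in primed ESCs, on the per-length TPM scale.

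The promoters of the 3 serine synthesis genes and of Mthfd2, a mitochondrial folate enzyme, are shown as those of 4 of the 14 members that were called lower in DKO. Each is the 250 bases before a RefSeq start on GRCm38.p6, all from the minus strand and written 5′ to 3′ along the gene, with CCAAT or its reverse complement ATTGG in capitals. Psat1 lies at chr19:15925060-15925309 (the first of 2 listed starts), Phgdh at chr3:98339970-98340219, Psph at chr5:129787254-129787503 and Mthfd2 at chr6:83317605-83317854. The window of the second start of Psat1 (chr19:15924623-15924872), not shown, held no CCAAT or ATTGG.
Psat1: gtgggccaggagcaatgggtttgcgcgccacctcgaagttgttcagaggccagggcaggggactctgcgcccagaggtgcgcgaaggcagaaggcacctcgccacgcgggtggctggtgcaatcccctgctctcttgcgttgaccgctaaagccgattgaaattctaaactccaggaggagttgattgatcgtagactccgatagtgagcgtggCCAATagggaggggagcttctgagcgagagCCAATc
Phgdh: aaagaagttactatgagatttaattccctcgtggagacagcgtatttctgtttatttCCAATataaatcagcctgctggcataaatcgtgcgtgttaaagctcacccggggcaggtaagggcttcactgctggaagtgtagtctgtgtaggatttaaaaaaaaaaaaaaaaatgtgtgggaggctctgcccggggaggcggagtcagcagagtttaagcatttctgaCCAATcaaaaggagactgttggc
Psph: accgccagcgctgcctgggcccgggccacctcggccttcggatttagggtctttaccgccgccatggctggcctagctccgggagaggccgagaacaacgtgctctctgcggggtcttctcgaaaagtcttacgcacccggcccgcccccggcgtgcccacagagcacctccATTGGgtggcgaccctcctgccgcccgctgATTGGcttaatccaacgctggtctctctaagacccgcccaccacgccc
Mthfd2: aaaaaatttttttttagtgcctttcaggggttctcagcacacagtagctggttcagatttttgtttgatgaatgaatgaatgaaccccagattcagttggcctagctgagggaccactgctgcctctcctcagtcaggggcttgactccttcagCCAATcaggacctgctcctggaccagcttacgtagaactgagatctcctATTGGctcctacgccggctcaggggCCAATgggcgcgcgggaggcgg
CCAAT, the letters bound by NF-Y, was looked for on both strands after these sequences had been seen, and occurred in 20 of the 37 listed promoters of the members (54.1%, for 29 members matched by symbol) and in 33.8% of all 32851 promoters. TGATGNAA, a core of the element bound by ATF4, occurred in 0 of the 37 and in 3.45% of all. CACGTG, the E-box bound by MYC and related factors, occurred in 2 of the 37 (5.41%), those of Cbs and Tyms, and in 6.02% of all. No letters of the 3 motifs contain one another, and a match is a description of these windows only.

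**Figure D2:**
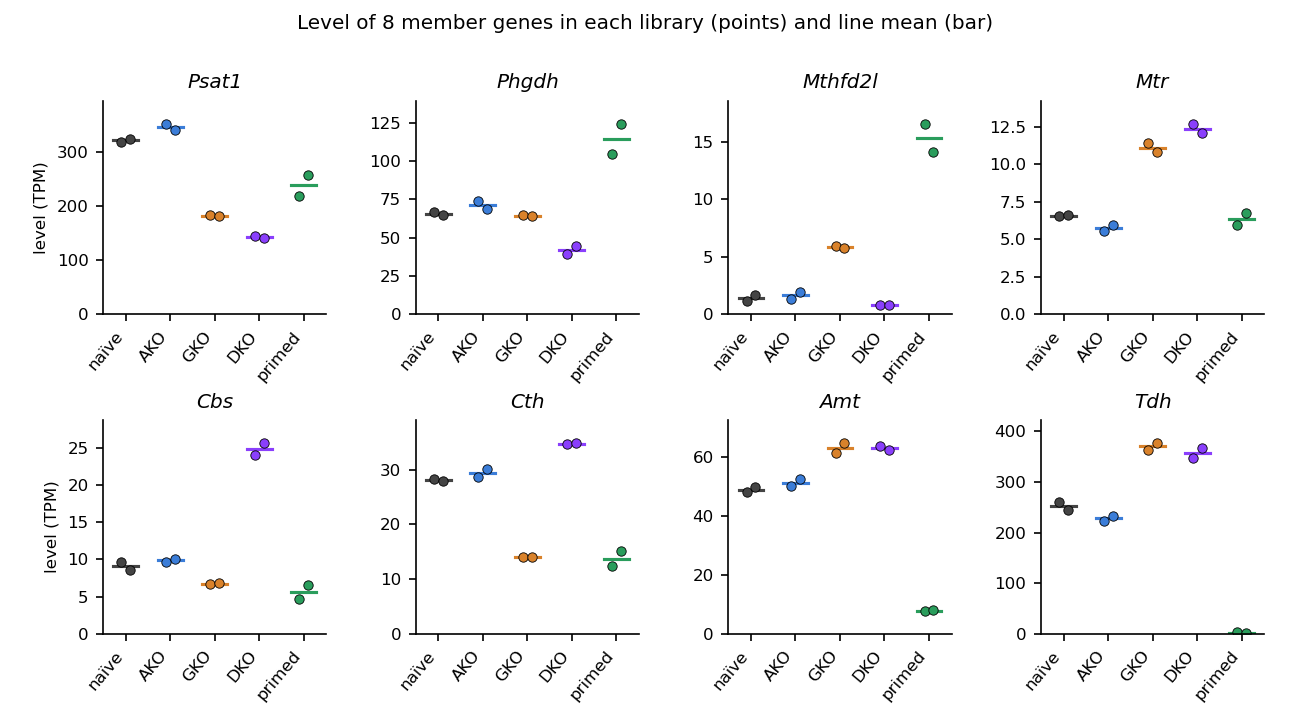
Level in TPM (vertical axes start at 0) of 8 member genes in each library (points) with the mean of each line (bars). Psat1 steps down from naïve to GKO and DKO, Mthfd2l is at 5.90 and 5.76 TPM in GKO and 16.6 and 14.1 in primed ESCs, Cbs is highest in DKO, and Amt and Tdh are low in primed ESCs only.

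Among the mitochondrial folate enzymes, Mthfd2 and Mthfd1l fell in both Gys1-deficient lines while Mthfd2l rose in GKO. Mthfd2, the dehydrogenase and cyclohydrolase of proliferating cells, was at 106 TPM in both naïve libraries, 117 and 111 in AKO, 81.7 and 87.4 in GKO, 65.1 and 68.8 in DKO, and 93.9 and 101 in primed ESCs. The GKO and DKO libraries lay below all others and did not overlap each other. It fell in GKO (-0.32 ± 0.06, adjusted p = 0.00133) and in DKO (-0.66 ± 0.06, adjusted p = 3.96e-05).

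Mthfd2l, the isozyme of Mthfd2, was at 1.11 and 1.64 TPM in naïve, 1.33 and 1.91 in AKO, 5.90 and 5.76 in GKO, 0.750 and 0.764 in DKO, and 16.6 and 14.1 in primed ESCs. GKO lay above naïve, AKO and DKO and below primed ESCs, with no overlap. Its change was 1.53 ± 0.14 in GKO (adjusted p = 3.78e-05), -0.43 ± 0.14 in DKO (adjusted p = 0.0312) and 2.79 ± 0.14 in primed ESCs (adjusted p = 1.03e-07). The DKO call of Mthfd2l was lost under 4 of 20 alternatives, among them leaving out naïve library 2 (-0.27) or either DKO library. Mthfd2 exceeded Mthfd2l 95.6 and 64.5 times in naïve ESCs, 13.8 and 15.2 times in GKO, 86.8 and 90.0 times in DKO, and 5.66 and 7.15 times in primed ESCs. Where transcripts resemble each other, RSEM estimates how reads are shared between them, so the level of a member with a close relative (Mthfd2 and Mthfd2l, Ahcyl1 and Ahcyl2) carries that uncertainty.

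Shmt2, the mitochondrial enzyme that turns serine into glycine, was at 135 and 133 TPM in naïve, 146 and 138 in AKO, 113 and 117 in GKO, 103 and 110.2 in DKO, and 168 and 209 in primed ESCs. It fell in DKO (-0.33 ± 0.09, adjusted p = 0.0146) and rose in primed ESCs (0.48 ± 0.09, adjusted p = 0.000828). The DKO call was lost under 4 of 21 alternatives, which were quantile normalization and leaving out either naïve library or DKO library 1. In GKO, where both libraries lay below both naïve ones, its change of -0.22 ± 0.09 did not pass the test (adjusted p = 0.0653). In a limma fit without the primed libraries, chosen after seeing the data, the same change had an SE of 0.04 and passed (adjusted p = 0.00333).

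Mthfd1l, the mitochondrial formate producer, had means of 31.3 TPM in naïve, 24.8 in GKO and 23.5 in DKO, and fell in GKO (-0.33 ± 0.06, adjusted p = 0.00154) and DKO (-0.40 ± 0.06, adjusted p = 0.000637). Aldh1l2, the mitochondrial counterpart of Aldh1l1 (described below), was at 0.531 and 0.653 TPM in naïve, 0.866 and 0.733 in AKO, 0.843 and 0.836 in GKO, 0.642 and 0.655 in DKO, and 1.53 and 2.17 in primed ESCs. It passed the filter on low values only through the primed libraries, where it is high, so its primed change of 0.83 is a description.

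The cytosolic folate enzymes moved in different directions. Mthfd1, the enzyme with 3 activities that links formate to the other folate forms, was at 83.1 and 82.5 TPM in naïve, 91.9 and 95.1 in AKO, 94.0 and 92.7 in GKO, 112 and 113 in DKO, and 119.8 and 126 in primed ESCs. The naïve libraries were the lowest of all. Mthfd1 rose in GKO (0.17 ± 0.04, adjusted p = 0.00866), in DKO (0.44 ± 0.04, adjusted p = 7.41e-05) and in primed ESCs (0.57 ± 0.04, adjusted p = 1.64e-06). In AKO the limma change was of the size of that in GKO (0.17 ± 0.04) but did not pass the adjusted test (adjusted p = 0.176). The GKO call was lost without naïve library 2 or GKO library 1. Mthfd1 lies on chromosome 12, whose median tested gene changed by 0.02 in GKO, 0.13 in DKO, 0.155 in AKO and 0.19 in primed ESCs.

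Shmt1, the cytosolic counterpart of Shmt2, was at 89.7 and 86.0 TPM in naïve, 84.3 and 84.6 in AKO, 69.6 and 67.4 in GKO, 81.2 and 80.6 in DKO, and 43.7 and 43.8 in primed ESCs. All other lines lay below the naïve libraries, with the primed ones lowest. It fell in GKO (-0.35 ± 0.04, adjusted p = 0.000135), in DKO (-0.12 ± 0.04, adjusted p = 0.0415) and in primed ESCs (-0.99 ± 0.04, adjusted p = 3.11e-08). The DKO call of Shmt1 was lost under 13 of 21 alternatives, among them leaving out any 1 of the naïve, AKO, GKO or DKO libraries. Shmt2 exceeded Shmt1 1.51 and 1.55 times in naïve and 3.84 and 4.76 times in primed ESCs.

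Aldh1l1, which oxidises formyl-folate to carbon dioxide, was at 2.24 and 2.18 TPM in naïve, 1.86 and 1.68 in AKO, 2.83 and 2.60 in GKO, 4.73 and 4.91 in DKO, and 3.10 and 3.35 in primed ESCs. DKO was the highest line without overlap. The change was 0.86 ± 0.08 in DKO (adjusted p = 4.92e-05), 0.40 ± 0.08 in primed ESCs (adjusted p = 0.00105) and 0.21 ± 0.08 in GKO (adjusted p = 0.0453), the last lost under 13 of 20 alternatives, among them leaving out any 1 of the naïve, AKO, GKO or DKO libraries. Its primed call was lost under quantile normalization. Tyms, thymidylate synthase, had means from 23.9 TPM in primed to 32.9 in AKO, and fell in primed ESCs only among the comparisons with naïve ESCs (-0.41 ± 0.09, adjusted p = 0.0023).

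In the methionine cycle, Mtr rose in both Gys1-deficient lines. Mtr, methionine synthase, was at 6.54 and 6.59 TPM in naïve, 5.54 and 5.97 in AKO, 11.4 and 10.8 in GKO, 12.7 and 12.1 in DKO, and 5.97 and 6.78 in primed ESCs. The 4 GKO and DKO libraries lay far above the other 6. The change was 0.68 ± 0.07 in GKO (adjusted p = 0.00011) and 0.82 ± 0.07 in DKO (adjusted p = 5.39e-05).

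Mtrr, the reductase that reactivates Mtr, was at 22.3 and 23.6 TPM in naïve, 23.1 and 24.0 in AKO, 16.8 and 18.3 in GKO, 22.8 and 23.6 in DKO, and 12.2 and 9.91 in primed ESCs. It was thus lower in GKO, overlapped the naïve libraries in DKO, and was lowest in primed ESCs. Mtrr fell in GKO (-0.37 ± 0.09, adjusted p = 0.0072) and in primed ESCs (-0.99 ± 0.09, adjusted p = 5.28e-06), and the change of GKO against DKO was -0.39 ± 0.09 (adjusted p = 0.00728). Without GKO library 1 both GKO calls were lost, and without naïve library 2 that against naïve ESCs.

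Mat2a, the catalytic subunit that makes S-adenosylmethionine, had the highest mean level of all members in naïve ESCs. It was at 481 and 469 TPM in naïve, 485 and 528 in AKO, 419.7 and 406 in GKO, 386 and 402 in DKO, and 312 and 234 in primed ESCs. Every GKO, DKO and primed library lay below every naïve one, and the fall passed the test in primed ESCs (-0.81 ± 0.11, adjusted p = 0.000114). Mat2b, its regulatory subunit, was at 45.1 and 44.0 TPM in naïve, 45.7 and 46.7 in AKO, 46.9 and 45.3 in GKO, 51.5 and 49.4 in DKO, and 75.8 and 73.9 in primed ESCs. Mat2b rose in primed ESCs (0.74 ± 0.04, adjusted p = 3.74e-07) and in DKO (0.17 ± 0.04, adjusted p = 0.0107). The DKO call of Mat2b was lost without naïve library 2 or DKO library 1. Mat2a exceeded Mat2b 10.7 and 10.6 times in naïve ESCs and 4.11 and 3.16 times in primed ESCs. Mat1a, the liver form, was at or below 0.0410 TPM throughout.

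Ahcy, which hydrolyses S-adenosylhomocysteine, was at 194 and 181 TPM in naïve, 211 and 206 in AKO, 168 and 153 in GKO, 158 and 126 in DKO, and 141 and 151 in primed ESCs. Naïve and AKO libraries were the highest. It fell in DKO (-0.41 ± 0.10, adjusted p = 0.00904) and in primed ESCs (-0.35 ± 0.10, adjusted p = 0.0086). Both calls of Ahcy were lost without naïve library 1, the primed one also under quantile normalization, and the DKO change was -0.24 without DKO library 2. Ahcyl2, a relative of Ahcy, was at 9.74 and 10.4 TPM in naïve, 8.69 and 9.17 in AKO, 12.3 and 12.6 in GKO, 8.33 and 6.83 in DKO, and 7.72 and 8.61 in primed ESCs. GKO was the highest line, and Ahcyl2 rose there (0.28 ± 0.09, adjusted p = 0.032) and fell in DKO (-0.38 ± 0.09, adjusted p = 0.00946). The GKO call of Ahcyl2 was lost under 6 of 21 alternatives, among them leaving out any 1 of the naïve or GKO libraries, and the DKO call without naïve library 2 or DKO library 2 (-0.25). Ahcyl1, the other relative, had means of 46.2 TPM in naïve, 39.6 in GKO, 33.5 in DKO and 54.7 in primed ESCs. It fell in DKO (-0.45 ± 0.08, adjusted p = 0.00204) and rose in primed ESCs (0.23 ± 0.08, adjusted p = 0.0268). The primed call of Ahcyl1 was lost under 5 of 20 alternatives, among them leaving out either naïve library or primed library 2 (0.08), and the change was 0.38 without primed library 1.

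Transsulfuration, the route from homocysteine to cysteine, separated GKO from DKO. Cbs, which joins homocysteine to serine, was at 9.67 and 8.54 TPM in naïve, 9.72 and 10.1 in AKO, 6.63 and 6.88 in GKO, 24.1 and 25.7 in DKO, and 4.66 and 6.53 in primed ESCs. DKO stood above every other library, and GKO and primed libraries lay below the naïve ones. The change was -0.38 ± 0.12 in GKO (adjusted p = 0.0272), 1.36 ± 0.12 in DKO (adjusted p = 4.96e-05) and -0.63 ± 0.12 in primed ESCs (adjusted p = 0.00105). The GKO call was lost under 5 of 21 alternatives, among them leaving out naïve library 1 or either GKO library.

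Cth, which splits cystathionine to cysteine, was at 28.3 and 27.95 TPM in naïve, 28.7 and 30.2 in AKO, 14.07 and 14.01 in GKO, 34.7 and 34.9 in DKO, and 12.3 and 15.2 in primed ESCs. The order of the lines was the same as for Cbs at its upper end, with DKO above AKO and naïve and GKO and primed ESCs together at the bottom. Cth fell in GKO (-0.95 ± 0.08, adjusted p = 3e-05) and in primed ESCs (-0.99 ± 0.08, adjusted p = 3.42e-06), and rose in DKO (0.30 ± 0.08, adjusted p = 0.0161). The DKO call of Cth was lost when any 1 of the naïve or DKO libraries was left out. Both genes together were at 37.97 and 36.49 TPM in naïve, 20.7 and 20.89 in GKO, 58.81 and 60.53 in DKO, and 16.97 and 21.73 in primed ESCs.

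**Figure D3:**
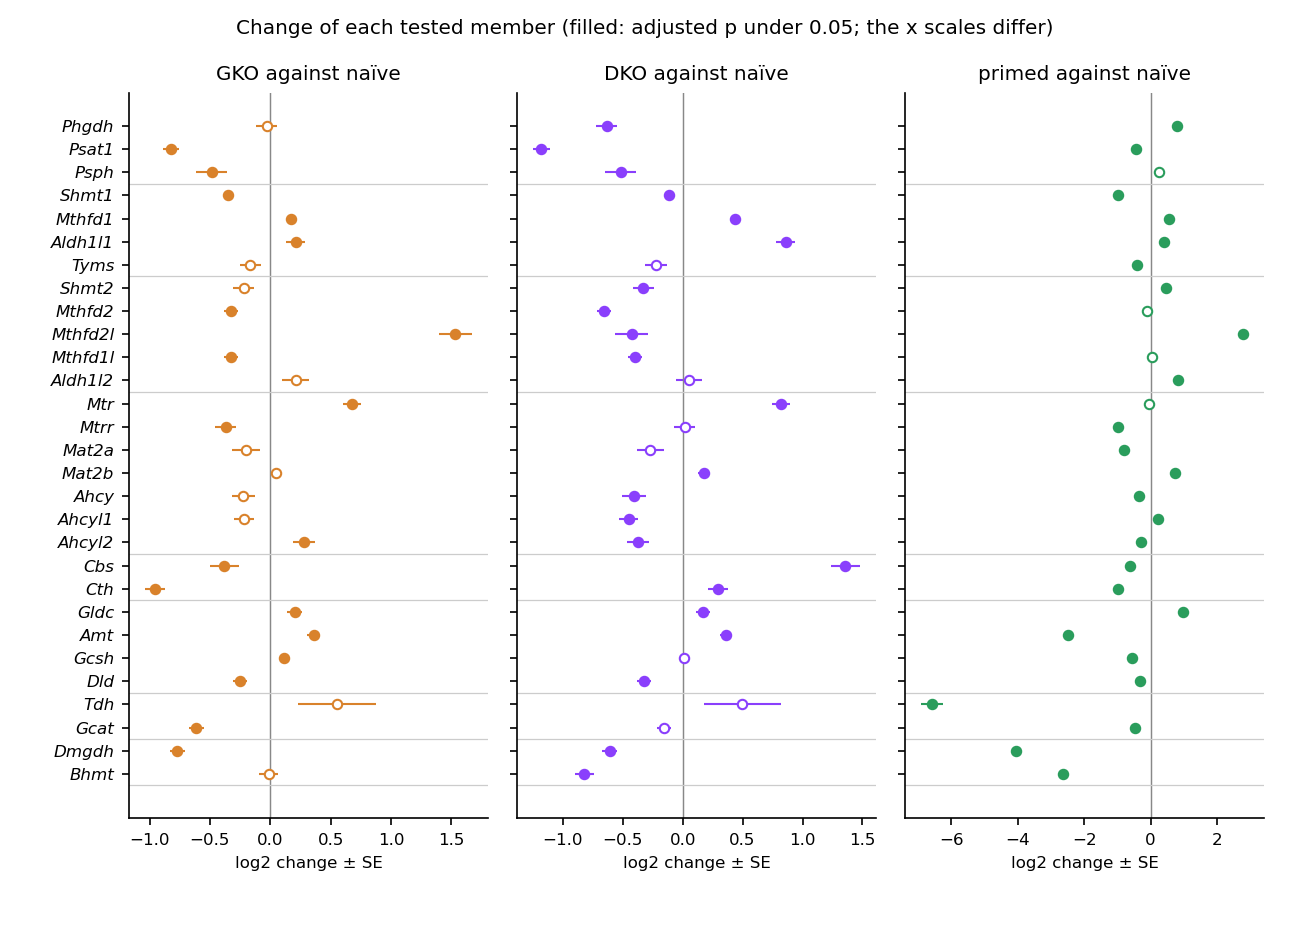
Change of the 29 tested genes in log2(TPM + 1) with its SE in GKO, DKO and primed ESCs against naïve ESCs (x scales differ between panels, branches separated by lines, filled points called). Cbs lies at -0.38 in GKO and 1.36 in DKO, and Mthfd2l at 1.53 and -0.43, while Psat1 lies below 0 in all 3 panels.

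Of the 4 subunits of the glycine cleavage system, Amt fell most in primed ESCs while Gldc rose there. Amt, the aminomethyltransferase that hands the carbon to folate, was at 48.0 and 49.8 TPM in naïve, 50.2 and 52.6 in AKO, 61.3 and 64.7 in GKO, 63.9 and 62.3 in DKO, and 7.59 and 8.04 in primed ESCs. GKO and DKO lay above the naïve libraries and overlapped each other. Amt rose in GKO (0.36 ± 0.05, adjusted p = 0.000435) and in DKO (0.36 ± 0.05, adjusted p = 0.000526), and fell in primed ESCs (-2.50 ± 0.05, adjusted p = 4.42e-10).

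Gldc, the decarboxylase that starts the reaction, was at 15.6 and 15.1 TPM in naïve, 12.1 and 11.4 in AKO, 18.1 and 17.6 in GKO, 17.9 and 17.0 in DKO, and 29.7 and 32.3 in primed ESCs. AKO was the lowest line and primed the highest, with no overlap with the rest. The change was 0.97 ± 0.06 in primed ESCs (adjusted p = 5.26e-07), 0.20 ± 0.06 in GKO (adjusted p = 0.0215) and 0.17 ± 0.06 in DKO (adjusted p = 0.0457), and the GKO call was lost when any 1 of the naïve or GKO libraries was left out (adjusted p up to 0.114). The DKO call was lost under 11 of 21 alternatives (adjusted p up to 0.211), among them leaving out any 1 of the 8 libraries other than the primed ones. Gldc was at 0.325 and 0.304 of the Amt level in naïve ESCs and at 3.91 and 4.02 times it in primed ESCs.

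Gcsh, the lipoyl carrier protein, was at 140.0 and 139 TPM in naïve, 135 and 137 in AKO, 152 and 150.2 in GKO, 144 and 137 in DKO, and 94.4 and 93.7 in primed ESCs. The naïve and DKO libraries overlapped. It fell in primed ESCs (-0.57 ± 0.04, adjusted p = 1.13e-06) and rose in GKO (0.11 ± 0.04, adjusted p = 0.0415). The GKO call of Gcsh was lost under 9 of 21 alternatives, among them leaving out any 1 of the naïve, AKO or GKO libraries, the replicate block and centring each chromosome, which gave a change of 0.01 (adjusted p = 0.896). Dld, the dehydrogenase shared with the pyruvate and oxoglutarate complexes, had a mean of 59.1 TPM in naïve ESCs and fell in the other lines that lack Gys1 or are primed, with log2 changes of -0.25 in GKO, -0.32 in DKO and -0.31 in primed ESCs (adjusted p = 0.00574, 0.00175 and 0.000803). Under quantile normalization its GKO and primed calls were lost, and with each chromosome centred that in GKO.

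In the threonine pathway, Tdh had the largest fall of any member in primed ESCs on the log2(TPM + 1) scale, although Dmgdh and Bhmt fell to a smaller fraction of their naïve TPM. Tdh, threonine dehydrogenase, was at 259.8 and 245 TPM in naïve, 223 and 233 in AKO, 364 and 377 in GKO, 347 and 368 in DKO, and 3.22 and 0.669 in primed ESCs. All GKO and DKO libraries lay above all naïve and AKO ones, and the primed libraries differed from each other. Tdh fell in primed ESCs (-6.58 ± 0.32, adjusted p = 1.02e-07). Its changes of 0.55 ± 0.32 in GKO and 0.50 ± 0.32 in DKO did not pass the test (adjusted p = 0.184 and 0.239), in a fit where the 5 lines share 1 estimate of the spread. In a fit of the 8 libraries without primed ESCs, which was chosen after seeing the data, the same changes had SEs of 0.05 and adjusted p of 3.78e-05 and 7.65e-05. Tdh lies on chromosome 14 (GRCm39, 63724585 to 63751098, minus strand), whose 392 tested genes had a median change of 0.47 in GKO and 0.36 in DKO.

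Gcat, which turns the product of Tdh into glycine and acetyl-CoA, was at 72.1 and 66.2 TPM in naïve, 68.6 and 69.6 in AKO, 43.3 and 46.4 in GKO, 60.7 and 63.2 in DKO, and 51.9 and 48.1 in primed ESCs, as the sum of the 2 rows that carry its symbol. GKO was the lowest line, without overlap. It fell in GKO (-0.61 ± 0.06, adjusted p = 5.98e-05) and in primed ESCs (-0.46 ± 0.06, adjusted p = 7.68e-05). With the 2 rows kept apart, the primed call was lost for the first. Tdh exceeded Gcat 3.60 and 3.70 times in naïve, 8.40 and 8.11 times in GKO, and 5.72 and 5.82 times in DKO, and was at 0.0621 and 0.0139 of it in primed ESCs.

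Chromosome medians also moved with other members. Psat1 and Gldc lie on chromosome 19, whose 393 tested genes had a median change of -0.40 in GKO, -0.27 in DKO and -0.45 in primed ESCs. The change of Psat1 minus that median was -0.42 in GKO and -0.91 in DKO, and that of Gldc 0.60 and 0.44. With each chromosome centred, Psat1 changed by -0.40 in GKO (adjusted p = 0.00178) and Tdh by -0.001 (adjusted p = 0.998). What sets these medians was not tested.

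**Figure D4:**
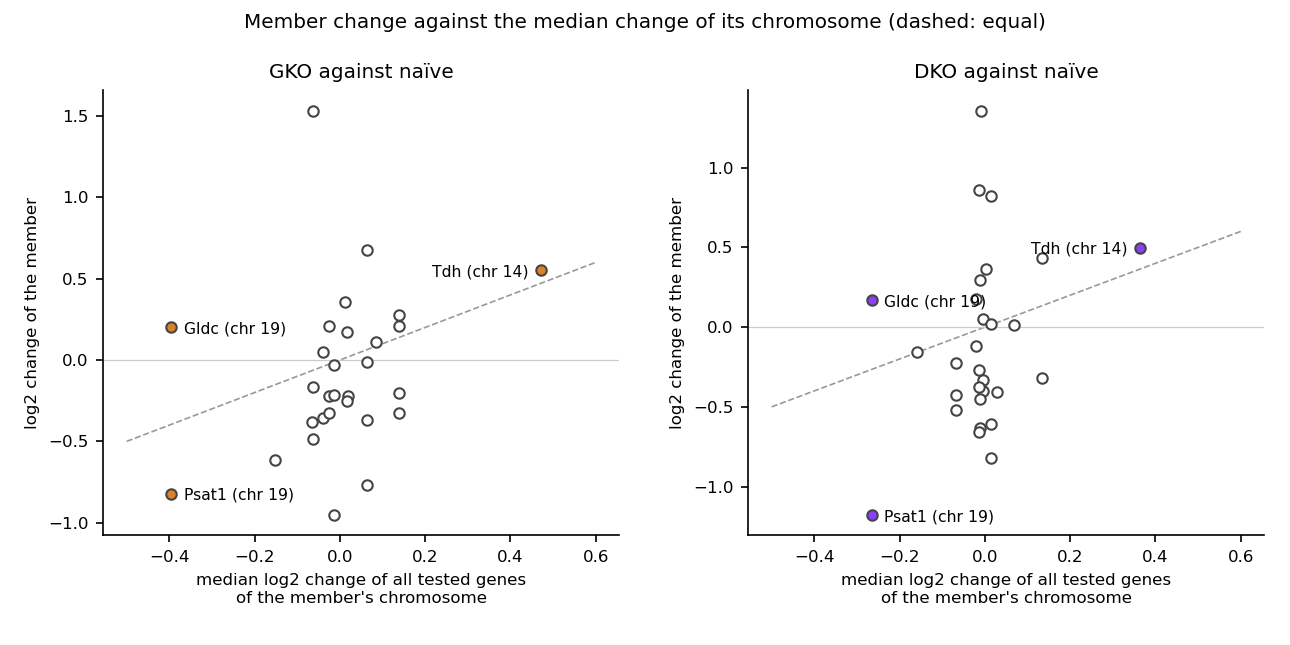
Log2 change of each tested member (vertical axis) against the median log2 change of all tested genes of its chromosome (horizontal axis) in GKO and DKO against naïve ESCs, with equality dashed and members on chromosomes 14 and 19 filled. Tdh lies close to the dashed line in GKO (0.55 against 0.47), while Psat1 (-0.82 against -0.40) lies below it and Gldc (0.20 against -0.40) above it.

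Methyl group disposal was near 0 in primed ESCs. Dmgdh, which demethylates dimethylglycine, was at 15.8 and 15.5 TPM in naïve, 14.3 and 14.8 in AKO, 8.96 and 8.58 in GKO, 9.76 and 10.1 in DKO, and 0 and 0.0110 in primed ESCs. The levels in primed ESCs were listed at or near 0, so their fitted change depends on the pseudocount. The lines formed 3 levels without overlap, naïve and AKO, then GKO and DKO, then primed. It fell in GKO (-0.77 ± 0.06, adjusted p = 2.14e-05), in DKO (-0.61 ± 0.06, adjusted p = 9.41e-05) and in primed ESCs (-4.05 ± 0.06, adjusted p = 9.12e-11).

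Bhmt, which remakes methionine from betaine, was at 5.17 and 5.44 TPM in naïve, 4.79 and 4.47 in AKO, 5.09 and 5.41 in GKO, 2.41 and 2.74 in DKO, and 0 and 0.0130 in primed ESCs. GKO overlapped naïve ESCs while DKO lay at a lower level. Bhmt fell in DKO (-0.82 ± 0.08, adjusted p = 7.3e-05) and in primed ESCs (-2.65 ± 0.08, adjusted p = 4.26e-09), and did not pass the test in GKO (adjusted p = 0.907). Bhmt and Dmgdh are neighbours on chromosome 13 (GRCm39), Bhmt at 93753183 to 93774469 on the minus strand and Dmgdh at 93810207 to 93895033 on the plus strand, 35.7 kb apart. Bhmt2, which is no member and lies between them, overlapping the start of Dmgdh, was looked up after these values had been seen, and was at 4.87 and 5.48 TPM in naïve, 3.24 and 3.56 in GKO, 3.56 and 3.43 in DKO, and 0 and 0.0290 in primed ESCs. The other members of this branch were low in every library, with Nnmt at most at 0.468 TPM, Gnmt at most at 0.698, and Sardh and Chdh at most at 0.0250 and 0.0190.

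The promoters of Dmgdh (chr13:93674186-93674435, plus strand) and Bhmt (chr13:93637759-93638008, minus strand) are shown because both genes were near 0 in the same libraries. They are 250 bases before the RefSeq start on GRCm38.p6, 5′ to 3′ along the gene, with CCAAT or ATTGG in capitals.
Dmgdh: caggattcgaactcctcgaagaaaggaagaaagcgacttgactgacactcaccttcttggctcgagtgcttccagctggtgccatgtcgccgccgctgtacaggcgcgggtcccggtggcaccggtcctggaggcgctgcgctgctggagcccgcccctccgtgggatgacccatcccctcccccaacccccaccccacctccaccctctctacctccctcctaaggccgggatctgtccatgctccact
Bhmt: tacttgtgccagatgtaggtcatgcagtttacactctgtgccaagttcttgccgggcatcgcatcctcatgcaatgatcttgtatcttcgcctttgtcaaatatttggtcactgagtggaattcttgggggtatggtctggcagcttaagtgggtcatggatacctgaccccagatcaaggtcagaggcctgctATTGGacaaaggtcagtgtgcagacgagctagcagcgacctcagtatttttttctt
The window of Dmgdh held 64.8% G and C and none of the 3 motifs, and that of Bhmt 48.0% and 1 match to CCAAT.

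AKO lay close to naïve ESCs. Beside the 0 members called by limma, 4 members had an unadjusted p under 0.05, 2 higher (Mthfd1 and Dld, both on chromosome 12) and 2 lower (Gldc and Aldh1l1), where 10.2% of all tested genes did. Gldc was nearest to the threshold, with a change of -0.36 ± 0.06 (adjusted p = 0.0853). It passed in the fit of 8 libraries (adjusted p = 0.0269) and with either primed library left out (adjusted p = 0.0248 each), which gave 1 called member.

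GKO and DKO, which differ in AMPK, were compared directly. Here 15 of 29 members were called, 7 higher and 8 lower in GKO, against a background of 43.6% (21.2% higher and 22.4% lower). Mthfd2l was higher in GKO by 1.96 ± 0.14 (adjusted p = 1.65e-05), Bhmt by 0.81 ± 0.08 (adjusted p = 8.59e-05), Ahcyl2 by 0.65 ± 0.09 (adjusted p = 0.000621) and Phgdh by 0.61 ± 0.09 (adjusted p = 0.000642). Psat1, Mthfd2 and Ahcyl1 were the other 3 that were higher. Cbs was lower in GKO by a log2 change of -1.74 ± 0.12 (adjusted p = 1.61e-05), Cth by -1.25 ± 0.08 (adjusted p = 1.16e-05) and Aldh1l1 by -0.65 ± 0.08 (adjusted p = 0.000226). Gcat, Mtrr, Mthfd1, Shmt1 and Mat2b were the other 5 that were lower, of which Mthfd1 changed direction with each chromosome centred. The call of Mat2b was lost under 14 of 21 alternatives and that of Ahcyl1 under 11, and both were lost when any 1 of the naïve, AKO, GKO or DKO libraries was left out. The call of Mthfd2 was lost with each chromosome centred, and that of Gcat for its first row.

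Loss of Gys1 was also compared between lines with AMPK and between lines with AMPK knocked out. The AMPK knockout lines differed in Prkaa1 mRNA (7.24 and 6.94 TPM in AKO, 2.30 and 2.04 in DKO), so they are not a uniform background. In DKO against AKO, 22 members were called, 8 higher and 14 lower, against a background of 46.4% (22.5% higher and 24.0% lower). The change between DKO and AKO differed from that between GKO and naïve ESCs, by the interaction term of the limma fit, for 12 members, 6 in each direction, against a background of 25.9% (13.1% positive and 12.8% negative). The count was 19 in the fit without the primed libraries, where 37.4% of all genes were called. No library enters both changes. Mthfd2l changed by 1.53 with AMPKα1 intact and by -0.57 with it knocked out, a difference of -2.10 ± 0.19 (adjusted p = 0.000197). Cbs changed by -0.38 and 1.25, a difference of 1.63 ± 0.17 (adjusted p = 0.000366), and Cth by -0.95 and 0.23, a difference of 1.19 ± 0.12 (adjusted p = 0.000256). The changes of Mat2b and Cth between DKO and AKO were themselves lost as calls under 11 and 10 of 21 alternatives. Psat1 fell in both, with changes of -0.82 and -1.29, and the difference of -0.47 ± 0.10 passed the test (adjusted p = 0.0085). Mtr rose in both, by 0.68 and 0.99, and the difference between these changes did not pass (adjusted p = 0.0623).

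**Figure D5:**
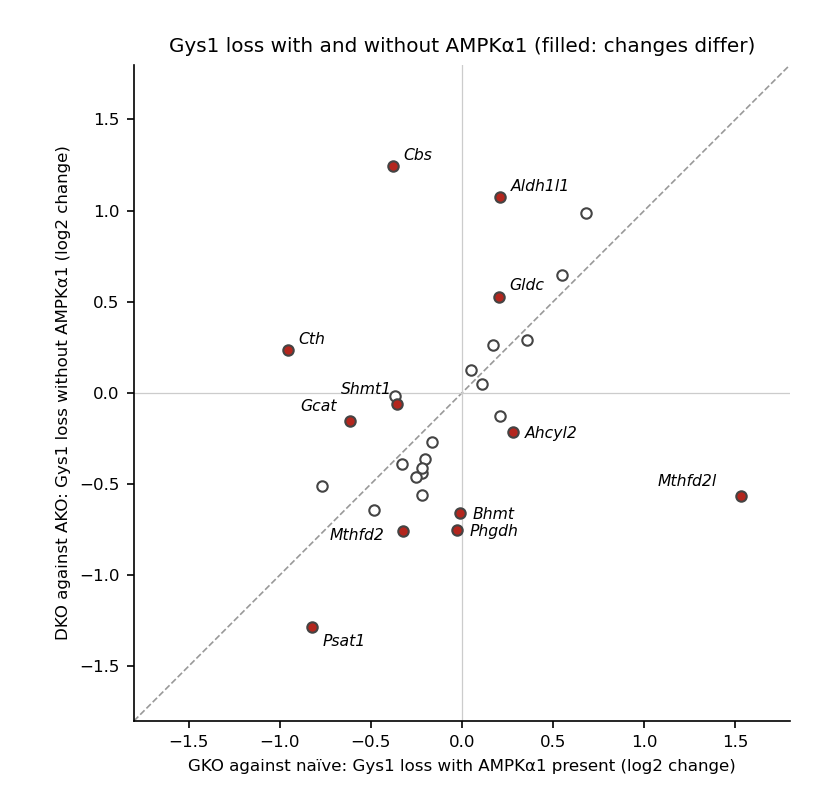
Log2 change on loss of Gys1 for the 29 tested genes, with AMPKα1 intact (GKO against naïve, horizontal) and knocked out (DKO against AKO, vertical). Equality is dashed, and the 12 genes whose changes differ are filled and named. Cbs and Cth lie above the dashed line on the left, Mthfd2l lies far below it on the right, and Psat1 is low on both axes.

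Genes around these enzymes were taken from a list of 40 transporters and enzymes that supply or use the same metabolites, of which 38 were tested. In GKO against naïve ESCs 17 were called (44.7%, beside 51.8% of all tested genes), 3 higher and 14 lower. Those with the largest absolute change were Adi1, the dioxygenase of methionine salvage (-1.08 ± 0.04, adjusted p = 6.09e-07), Slc1a4, a neutral amino acid transporter (0.93 ± 0.08, adjusted p = 3.71e-05), Odc1, the first enzyme of polyamine synthesis (-0.79 ± 0.08, adjusted p = 6.06e-05), and Mthfs, a folate enzyme (-0.67 ± 0.10, adjusted p = 0.00045). Of 9 tested genes of methionine salvage and polyamine synthesis, 5 were called (55.6%), all lower, where 27.1% of all tested genes were called lower. In DKO against naïve ESCs 19 were called, 5 higher and 14 lower, beside 46.1% of all tested genes, and in AKO 1. In primed against naïve ESCs 33 were called (86.8%, beside 80.0% of all tested genes), 13 higher and 20 lower. Slc7a11, the cystine importer, was at 0.249 and 0.245 TPM in naïve and 23.8 TPM in both primed libraries, where Cbs and Cth were low. Gatm, which uses glycine for creatine, was at 0.0710 and 0.127 TPM in naïve and 9.28 and 8.83 in primed ESCs. Both, like Srr and Sdsl of the same list, passed the filter on low values only through the primed libraries, where they are high. All of these are among the 13 higher genes, so their levels and that count are a description. Slc7a11 was also counted in GKO, DKO and AKO, and Gatm in GKO, at levels below 1 TPM. Slc1a4 rose by 3.29 ± 0.08 (adjusted p = 1.53e-09), while Folr1, a folate receptor, fell (-2.71 ± 0.21, adjusted p = 2.55e-06).

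Single markers of other cells moved with some of these differences. The summed level of 5 fibroblast genes was 2.33 to 3.33 TPM in naïve, AKO and DKO, from 7.97 to 9.22 in GKO and from 9.10 to 15.3 in primed ESCs, with Col3a1 and Postn at or below 0.459 TPM. In GKO most of that sum was Thy1 (7.14 and 8.48 TPM, beside 3.00 and 2.44 in naïve ESCs), and Col1a2 was at 0.0860 and 0.0140 TPM. That of 4 trophectoderm genes was 2.63 to 3.5 TPM in naïve and AKO, 6.88 to 7.39 in GKO and DKO, and 1.24 and 0.220 in primed ESCs, with Cdx2 its highest gene in naïve, AKO, GKO and DKO. Gata3, of the same list, was at 0.911 and 0.629 TPM in naïve, 0.0480 and 0.101 in GKO and 0.619 and 0.495 in DKO. Their part in the differences above was not tested.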

How the data were processed

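Gene expression was measured by RNA-seq in 10 libraries, 2 from each of 5 lines. The deposited values are TPM per gene, which the authors estimated with RSEM 1.3.3 after trimming with Trim Galore 0.6.6 and alignment with STAR 2.7.9a, per the submitters' processing notes. Those notes list GRCm38, while the study's methods name GRCm39, and the labels and the methods also name different library kits and sequencers, so the build behind the values is unsure. TPM sums to a fixed total over all genes, so a large rise in some genes lowers the others. The deposited rows summed to unlike totals, from 500162 TPM (primed library 2) to 578952 (AKO library 1). TPM also keeps no read depth, so the counting error of a value is unknown.

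Each table held 21853 rows. Rows sharing a symbol (26 symbols) were summed, giving 21830 genes, and symbols turned into dates (24) were left as found. Values were analysed as log2(TPM + 1) for the 12052 genes at 1 TPM or more in at least 2 libraries, in one limma fit (limma 3.58.1, R 4.3.3) of the 5 lines with an intensity trend and no covariates. P-values were adjusted by the Benjamini-Hochberg method over all tested genes with a threshold of 0.05. An exact permutation test of 2 against 2 libraries cannot go below p = 0.333 and was not used.

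The members, branches, marker lists and pathway neighbours were chosen with earlier results of these data known. All 34 members are named. Values per library are given for those called with an absolute log2 change of at least 0.5 in any comparison or with a line mean of at least 100 TPM. Up to 4 neighbours with the largest absolute change are named in GKO and in primed against naïve ESCs. Promoters (RefSeq, GRCm38.p6) were matched by symbol for 29 members, with none printed for Tdh, Cth, Aldh1l2, Mat1a and Nnmt, and gene positions are those of GRCm39. The fit was tested on simulated data in which each gene had the same spread in every line, unlike the primed libraries here. Alternatives were another pseudocount (0.1 TPM), no filter or a mean of 5 TPM, a minimum change of 0.5, other scalings, centring each chromosome, a replicate block, no trend, only the libraries compared, and leaving out each library. The fit of 8 libraries and keeping rows of 1 symbol apart were added after seeing the data.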

Additional observations from a re-analysis of the deposited data

Results flagged for a closer look

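The change on loss of Gys1 differed between cells with AMPKα1 knocked out (DKO against AKO) and with it intact (GKO against naïve) for 12 members. This was judged by the interaction term of the limma fit. The difference is the log2 change with AMPKα1 knocked out minus that with it intact. It was -2.10 for Mthfd2l, 1.63 for Cbs, 1.19 for Cth, 0.86 for Aldh1l1, -0.72 for Phgdh and -0.64 for Bhmt (adjusted p from 0.000197 for Mthfd2l to 0.00381 for Bhmt). It was smaller for Ahcyl2 (-0.49), Psat1 (-0.465), Gcat (0.46), Mthfd2 (-0.435), Gldc (0.33) and Shmt1 (0.29), with adjusted p from 0.00484 for Mthfd2 to 0.0237 for Ahcyl2. Those of Ahcyl2 and Gldc were lost under 8 of 21 alternatives each, mostly on leaving out 1 library, that of Mthfd2 was lost with each chromosome centred, and that of Gcat for the first of its 2 rows kept apart. AKO and DKO also differed in Prkaa1 mRNA, as given above. Each line may come from few clones, and differences between clones and between AMPK states cannot be told apart.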

How the results depend on the processing

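With a minimum log2 change of 0.5, the called members were 6 in GKO, 9 in DKO and 16 in primed against naïve ESCs, 7 in GKO against DKO, 12 in DKO against AKO and 6 for the interaction. Leaving out 1 library at a time gave 11 to 24 in GKO (11 without GKO library 1), 0 to 1 in AKO and 10 to 19 for the interaction, with 1 and 19 without either primed library. The fit of 8 libraries without primed ESCs also gave 1 in AKO and 19 for the interaction, and a fit of only the libraries compared gave 19 for the interaction. The fit of 8 libraries gave 24 in GKO and 26 in DKO, where 60.6% and 55% of all tested genes were called. It added Shmt2, Aldh1l2, Mat2a, Ahcyl1 and Tdh in GKO, and Mat2a, Tdh, Gcat and Tyms in DKO. Direction reversed with each chromosome centred for Ahcyl2 in primed ESCs (0.062), Mthfd1 in GKO against DKO (0.026), Tdh in GKO (-0.001) and Phgdh in GKO (0.035), and with quantile normalization for Phgdh in GKO (0.066). Calls lost under 8 or more of their 20 or 21 alternatives were those of Mat2b (14) and Ahcyl1 (11) in GKO against DKO, Aldh1l1 (13) and Gcsh (9) in GKO, Shmt1 (13) and Gldc (11) in DKO, Mat2b (11) and Cth (10) in DKO against AKO, and the interactions of Ahcyl2 and Gldc (8 each). The cause was not tested. Samples with the same replicate number did not deviate together (correlations from -0.136 to 0.076), and whether they share a batch was not tested. The replicate block gave 17 called members in GKO, 21 in DKO, 0 in AKO, 25 in primed ESCs, 13 in GKO against DKO, 21 in DKO against AKO and 12 for the interaction. TPM holds no depth, so the precision of low members cannot be given.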
